A study of Homo sapiens with 12 samples.

Results

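PANC-1 cells, a human cell line from a pancreatic ductal adenocarcinoma (PDAC) that the study uses as a model of the basal-like subtype, were compared with and without the splicing factor RBFOX2. The genes described are the 22427 of 48114 listed genes whose values averaged 10 normalized counts or more across the 3 control (siCtrl) and the 3 RBFOX2-silenced (siRBFOX2) libraries, which are 6 of the 12 libraries of the series. PANC-1 cells were transfected for 48 h with a control siRNA or with siRNA against RBFOX2 at 40 nM, and polyA RNA was sequenced. A further 3 PANC-1 libraries, silenced in the same way for the splicing factor QKI (siQKI), show how far a change was shared by another knockdown. Both knockdowns are set against the same siCtrl libraries, so their fold changes are not independent of each other, and the direct comparison of siRBFOX2 with siQKI was tested beside them. The series calls the libraries of a group biological replicates without saying whether they came from separate cultures, so p-values measure the spread between these libraries. The sequence of the siRNA against RBFOX2 is not given in the sources used here, and with a single siRNA condition the loss of RBFOX2 and other effects of this siRNA cannot be told apart.

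RBFOX2 is an RNA-binding protein of the RBFOX family that recognises GCAUG elements, mostly in the introns around alternative exons. Where it binds downstream of an exon it generally favours inclusion, and where it binds upstream it generally favours skipping. It is known for exons that switch in epithelial-mesenchymal transition (EMT) and for its activity in muscle and heart, while the gene totals described here also take up changes in transcription and RNA stability that lie downstream of splicing or apart from it.

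A normalized count is the authors' count for a gene divided by the size factor of its library. Fold changes are differences of log2(normalized count + 1), which understates the change of genes with low counts, and a gene was called changed, higher or lower at an adjusted p under 0.05 from limma. Pearson's r between libraries of one group was 0.965 to 0.974 across genes. Several defining markers of other cells were absent. PRSS1 of acinar cells, INS and GCG of islets, DCN of fibroblasts, CD3E of T cells, MS4A1 of B cells and CLDN5 of endothelium were listed at 0 in all 9 PANC-1 libraries, as was the tumor suppressor CDKN2A. Other listed markers were present, such as CD68 (50068 to 56672 normalized counts in siCtrl) and ITGAM (634 to 727) of the leukocyte list and THY1 (5315 to 7415) and COL1A1 (3869 to 4282) of the stromal list, while the keratins KRT8, KRT18 and KRT19 and the intermediate filament gene VIM were abundant. The endothelial marker VWF was low in siCtrl (19 to 21.1). KDR, also endothelial, was at 0 in siCtrl, at 30.8, 17.4 and 0 in siQKI and at 71.5, 35.8 and 17.6 in siRBFOX2 libraries. The acinar gene AMY2A was at 0 in siCtrl and at 0, 34.9 and 33.3 in siRBFOX2 libraries.

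The targeted gene was measured first. RBFOX2 (GSHG0029451 in the FAST DB annotation; hg38, chromosome 22, 35738736 to 36028824) had 15355, 15508 and 15424 normalized counts in the siCtrl libraries and 2403, 2171 and 1712 in the siRBFOX2 libraries. All siRBFOX2 libraries lay far below all siCtrl libraries, and 13.6% of the control level remained (log2 fold change -2.89, standard error 0.09, limma adjusted p = 6.25e-11). RBFOX2 was also somewhat lower in siQKI libraries, at 12629, 12778 and 12520 normalized counts (log2 fold change -0.29, limma adjusted p = 0.021). The siQKI cells were thus not at the control level of RBFOX2. GSHG0029452, a locus without a symbol that lies inside RBFOX2, was not called (log2 fold change 0.22, limma adjusted p = 0.0784). Of the other members of the RBFOX and STAR families, RBFOX1 was listed at 0, RBFOX3 was low in every library (48 to 114 normalized counts in siCtrl, 11.6 to 138 in siRBFOX2) and QKI was not called (log2 fold change 0.13, limma adjusted p = 0.105). KHDRBS3, which encodes the STAR protein SLM2, fell from 4994 to 5419 normalized counts to 4078 to 4568, a log2 fold change of -0.29 in siRBFOX2 and of -0.27 in siQKI cells.

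Of the 22427 genes, 5989 (26.7%) were called against siCtrl, 2716 of them higher (12.1%) and 3273 lower (14.6%). Most changes were small, since 4699 of these genes moved by less than 1.5-fold, and among the larger changes 926 genes (4.13%) were higher and 364 (1.62%) were lower. These larger changes lay at different levels of expression, with a median of 450 normalized counts for the higher and 1440 for the lower genes, against 918 over all genes tested. The siRBFOX2 libraries all lay above the siCtrl libraries for 4104 genes (18.3%) and all below for 4432 (19.8%). The median log2 fold change of all genes was 0.01. The balance of directions depended on the scaling, as rescaling each library by its upper quartile gave 3154 higher and 2693 lower genes. Against siQKI, 4841 genes (21.6%) were called. The changes that set RBFOX2 knockdown apart from both other groups were 685 genes (3.05%) higher and 860 (3.83%) lower than both.

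The class of a gene and its level went with the direction of its change. Of 14594 protein-coding genes, 15.3% were higher and 21.5% lower, with a median log2 fold change of -0.02. Of 1725 long noncoding RNAs (lncRNAs), 193 (11.2%) were higher and 34 (1.97%) lower, with a median of 0.20, and pseudogenes were also more often higher (13.8%) than lower (3.73%). Among 159 microRNA genes, 2 were higher and 4 lower. Within the protein-coding class, the split followed expression when the genes were divided by mean into 4 groups of equal size. In the group with the lowest means (10 to 687 normalized counts), 10.2% were higher and 2.58% lower, with a median of 0.24, whereas in the group with the highest means (15227 and above) 12.9% were higher and 41.7% lower, with a median of -0.09. The length of the gene on the genome made little difference, as the share of lower genes was 19.9%, 22.1%, 23.5% and 20.7% over 4 groups of equal size from the shortest to the longest genes. In siQKI cells the median for lncRNAs was also 0.20 and the medians of the lowest and highest coding groups were 0.23 and -0.11, against the same controls. Since low-level and noncoding genes lean upwards and highly expressed genes downwards in both knockdowns, the median level of the main groups is given below, and the part of the level in their direction was not tested.

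**Figure D1:**
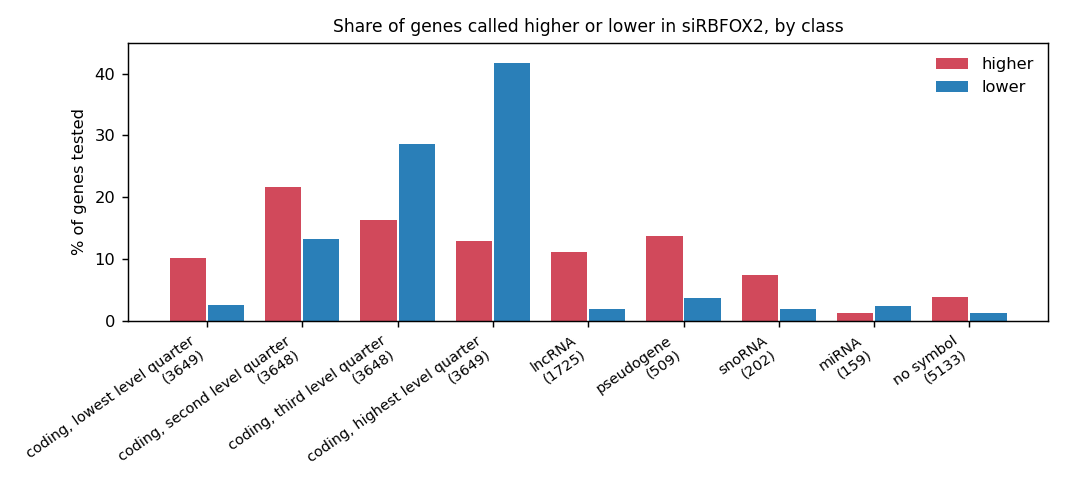
Share of the genes tested (%, vertical axis) that were called higher (red) or lower (blue) in siRBFOX2 against siCtrl libraries, for 4 equal groups of the protein-coding genes by mean normalized count and for 5 other classes, with the number of genes in brackets. The share of lower genes climbs from 2.58% in the lowest to 41.7% in the highest coding group, while called lncRNAs and pseudogenes are more often higher than lower, most of both classes not being called.

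Of 676 tested RNAs named as antisense to another gene, 79 (11.7%) were higher and 6 (0.888%) lower (median log2 fold change 0.20), and of 339 LINC RNAs 38 (11.2%) were higher and 8 (2.36%) lower (median 0.14). The shares of higher genes were near the 12.1% of all genes, and the shares of lower genes were below the 14.6% of all genes. The count of higher LINC RNAs fell to 25 without siRBFOX2 replicate 2 or 3, and that of lower ones to 2 without siCtrl replicate 3 or siRBFOX2 replicate 2. Genes of the ZNF series, most of which encode KRAB or other C2H2 zinc finger repressors of transcription, were higher in 119 and lower in 35 of 476 cases, with a median of 0.11 in both knockdowns and 25 genes above both siCtrl and siQKI. ZNF367, chosen by its fall, had 18987, 20938 and 21686 normalized counts in siCtrl and 11412, 10043 and 11080 in siRBFOX2 libraries (log2 fold change -0.92, limma adjusted p = 1.96e-07). Without siRBFOX2 replicate 1 the number of lower ZNF genes was 23, and without limma's mean-variance trend the number of higher ones was 76. Loci without a symbol, 5133 of the genes tested, were higher in 198 and lower in 68 cases, and these counts fell to as low as 119 (without siRBFOX2 replicate 2) and 39 (without siCtrl replicate 1 or 3).

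Many of the largest falls of the experiment lay among immediate-early genes. These genes are transcribed within minutes of growth factor signalling through the MAPK (ERK) cascade, and many encode transcription factors, while others, such as the DUSP phosphatases and SPRY proteins, feed back on the cascade. Of 40 listed immediate-early and MAPK feedback genes, all of them tested, 31 (77.5%) were lower and 3 (7.5%) higher, with a median log2 fold change of -0.69, against 14.6% lower and a median of 0.01 over all genes tested. In siQKI cells 25 of these genes were lower and 1 higher, with a median of -0.33. The fall was at least 1.5-fold in 21 members, and all siRBFOX2 libraries lay below all siCtrl libraries in 32. The count of lower members was 31 with any one of the 6 libraries left out. The median level of the list was 16214 normalized counts in siCtrl cells.

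The transcription factors of the list fell furthest. EGR2 (GSHG0005047; chromosome 10, 62811996 to 62819167), a zinc finger factor of the EGR family, had 5500, 6421 and 4922 normalized counts in siCtrl and 897, 822 and 520 in siRBFOX2 libraries, so that 13.3% remained (log2 fold change -2.94, standard error 0.17, limma adjusted p = 1.8e-08). NR4A2 (GSHG0026007; chromosome 2, 156324432 to 156332721), an orphan nuclear receptor, had 1476, 844 and 992 normalized counts in siCtrl and 176, 80.4 and 121 in siRBFOX2 libraries (log2 fold change -3.15, standard error 0.26, limma adjusted p = 6.42e-07). EGR3 went from 894, 540 and 529 to 266, 50.4 and 25.9 normalized counts, with the same log2 fold change of -3.15 but a wider standard error of 0.57. Groups did not overlap for any of these genes, although siRBFOX2 replicate 1 held on to more EGR3 than the other siRBFOX2 libraries. The log2 fold change of EGR3 was -4.09 without that library and -2.44 without siRBFOX2 replicate 3. NR4A1 fell from 2078 to 2822 normalized counts to 451 to 556 (log2 fold change -2.19, limma adjusted p = 4.08e-08).

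FOSB and FOS, which encode subunits of the AP-1 factor, had log2 fold changes of -2.69 and -2.37, with 15.6% and 19.6% of their control levels left. Both share their loci with other genes in the annotation (FOSB with ERCC1, FOS with ERG28, TTLL5 and JDP2), and counting by strand is not stated, so their totals are less certain. EGR1, chosen after its values were seen as the most abundant EGR gene, fell from 65757, 57383 and 54753 normalized counts in siCtrl to 18646, 17672 and 13576 in siRBFOX2 libraries (log2 fold change -1.84, standard error 0.11, limma adjusted p = 2.05e-08). Members with smaller falls, also chosen after their values were seen, were JUN (log2 fold change -1.06), JUNB (-0.72), IER2 (-0.71) and MYC (-0.26). The members that were not called were NR4A3, SPRED3, JUND, KLF6, KLF10 and DUSP4, and those called higher were the phosphatase genes DUSP8 (0.58) and DUSP10 (0.51) and the stress factor ATF3 (0.32). The call of DUSP10 was lost in 10 and that of ATF3 in 3 of the 15 alternatives, siRBFOX2 replicate 3 being the library without which ATF3 was lost, with a log2 fold change of 0.20.

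The promoter of EGR1 is shown because it holds a textbook element of immediate-early induction, the CArG box bound by serum response factor. Within the 250 bases before the RefSeq start (GRCh38.p14, chr5:138465229-138465478, plus strand), a search of both strands found 2 CArG boxes, in capitals, which begin 105 and 83 bases before the start.
EGR1: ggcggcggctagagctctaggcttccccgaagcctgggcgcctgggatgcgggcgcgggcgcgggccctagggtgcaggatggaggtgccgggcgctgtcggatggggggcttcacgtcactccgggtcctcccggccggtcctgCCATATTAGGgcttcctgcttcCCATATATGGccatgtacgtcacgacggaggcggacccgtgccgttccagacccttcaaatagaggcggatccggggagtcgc
RefSeq promoters were matched for 23 of the 31 lower members, and EGR1 was the only one with a match in this window, against 1.16% of 35116 promoters. A match is a description of letters and not evidence of binding, and a missing match says only that these letters are not in this window.

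**Figure D2:**
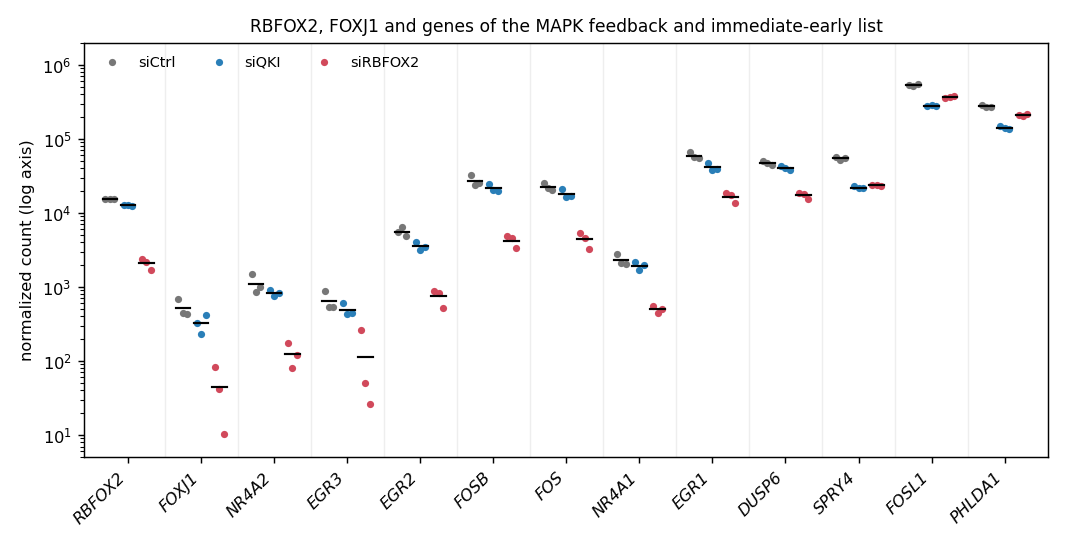
Normalized counts (vertical log axis) of RBFOX2, FOXJ1 and 11 genes of the MAPK feedback and immediate-early list in each siCtrl (grey), siQKI (blue) and siRBFOX2 (red) library, with bars at the means of 3 libraries. From NR4A2 to DUSP6 the siRBFOX2 points lie below both other groups, SPRY4 is low in both knockdowns, and FOSL1 and PHLDA1 are lowest in siQKI.

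The feedback genes divided by knockdown. DUSP6, the cytoplasmic ERK phosphatase, had 50756, 46983 and 44132 normalized counts in siCtrl, 42571, 40647 and 38511 in siQKI and 18640, 17875 and 15691 in siRBFOX2 libraries. Its fall in siRBFOX2 (log2 fold change -1.44) exceeded that in siQKI (-0.22), and the difference was -1.22 (limma adjusted p = 9.25e-09). SPRY4, an inhibitor of receptor signalling to ERK, fell in both, at -1.22 in siRBFOX2 and -1.32 in siQKI, and the difference of 0.10 (standard error 0.04) was not called (limma adjusted p = 0.119). ETV4, an ETS factor induced by ERK, fell in both as well, at -0.95 and -1.06, with a difference of 0.11 (standard error 0.08, limma adjusted p = 0.441) and with DHX8 overlapping its locus. By contrast FOSL1, an AP-1 subunit, had 536855, 512327 and 546990 normalized counts in siCtrl, 278011, 287781 and 276891 in siQKI and 360642, 372423 and 386620 in siRBFOX2 libraries, and thus fell further in siQKI (difference 0.41, limma adjusted p = 3.65e-06). PHLDA1, DUSP5, ETV1 and ETV5 showed the same order. In all, 18 of the 40 members were lower in siRBFOX2 than in both siCtrl and siQKI, where the share over all genes was 3.83%, and DUSP2 was lower in siRBFOX2 (-1.09) while it was higher in siQKI (0.38). These genes were chosen after their values were seen. Among ligands of the EGF receptor, which signals to ERK, HBEGF and AREG fell in siRBFOX2 cells (-1.13 and -1.09) and in siQKI cells (-0.95 and -1.55).

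FOXJ1 (GSHG0019649; chromosome 17, 76136333 to 76141290), the transcription factor that drives the making of motile cilia, had the largest fall of the genes ranked. Ranked genes were called, had a symbol, averaged 50 normalized counts or more and showed no overlap of siRBFOX2 with siCtrl libraries. FOXJ1 had 679, 444 and 435 normalized counts in siCtrl, 324, 234 and 423 in siQKI and 82, 41.6 and 10.2 in siRBFOX2 libraries. In siRBFOX2 cells 8.6% of the control level remained (log2 fold change -3.90, standard error 0.53, limma adjusted p = 7.59e-05), and FOXJ1 was also lower than in siQKI cells by -3.22 (limma adjusted p = 0.000444). The log2 fold change was -3.10 without siRBFOX2 replicate 3 and -4.54 without siRBFOX2 replicate 1. Of the 89 tested genes of motile cilia and intraflagellar transport, FOXJ1 included, 12 were higher and 10 lower (13.5% and 11.2%, near the 12.1% and 14.6% of all genes), with a median of 0.14. The count of higher members was 7 without siRBFOX2 replicate 1 or 3. RSPH1 (1.77) and DNAH3 (1.23), of the radial spokes and dynein arms of cilia, were called higher, and both calls were lost without siCtrl replicate 3, siRBFOX2 replicate 1 or siRBFOX2 replicate 2. CFAP210, a protein inside ciliary microtubules, had 665, 563 and 512 normalized counts in siCtrl and 335, 303 and 458 in siRBFOX2 libraries (log2 fold change -0.68), a call lost without siCtrl replicate 1 or siRBFOX2 replicate 2, and its log2 fold change ran from -0.85 to -0.55 over all alternatives.

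Genes of the antioxidant response rose. Most of them are transcribed by NRF2 (encoded by NFE2L2), which is held back by KEAP1 until oxidants or electrophiles release it. Of 30 tested members, 17 (56.7%) were higher and 0 lower, against 12.1% and 14.6% of all genes, and the median log2 fold change was 0.26. Leaving out 1 library gave 14 to 17 higher members. The list was abundant, with a median of 35338 normalized counts in siCtrl cells, a level at which most called coding genes were lower. In siQKI cells the median was 0.01, and 12 members were higher in siRBFOX2 than in both siCtrl and siQKI, where the share over all genes was 3.05%.

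HMOX1 (GSHG0028588; chromosome 22, 35380437 to 35394207), the heme oxygenase that breaks down heme, had 33466, 37213 and 41455 normalized counts in siCtrl, 30164, 34609 and 33770 in siQKI and 66701, 59774 and 75253 in siRBFOX2 libraries. Every siRBFOX2 library lay above all 6 others, with a log2 fold change of 0.85 over siCtrl (standard error 0.08, limma adjusted p = 3.26e-06) and of 1.03 over siQKI. SLC7A11, the cystine carrier that feeds glutathione synthesis, went from 1598, 1670 and 1874 to 3005, 3428 and 3372 normalized counts (log2 fold change 0.93, limma adjusted p = 4.12e-05). TXNRD1, the cytosolic thioredoxin reductase, moved in opposite directions in the knockdowns, with log2 fold changes of 0.43 in siRBFOX2 and -0.41 in siQKI. The peroxidase gene CAT rose by 0.49 and the ferritin chains FTL and FTH1 rose by 0.49 and 0.42 on the log2 scale, FTL being counted at a locus that overlaps RPL18 and other genes. ABCC1 and ABCC3, exporters of glutathione conjugates, rose in both knockdowns (0.68 and 0.64 in siRBFOX2, 1.01 and 0.68 in siQKI). Except for SLC7A11, HMOX1 and ABCC1, these genes were chosen after their values were seen.

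At the edge of detection, the aldo-keto reductase gene AKR1C3 was listed at 0 in all siCtrl and siQKI libraries and at 91.5, 52.3 and 30.6 normalized counts in the siRBFOX2 libraries. No fold is given against a group at 0, and its call was lost without siRBFOX2 replicate 1 and with a pseudocount of 0.1. NFE2L2 itself rose by 0.15 (limma adjusted p = 0.0248), a call lost in 6 of the 15 alternatives. These included leaving out siCtrl replicate 1 or 2 or siRBFOX2 replicate 1 or 2, and its log2 fold change ran from 0.12 to 0.20.

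The enzymes that make serine from glucose rose beside them. PHGDH (GSHG0001001; chromosome 1, 119711875 to 119744215), which opens that path, had 12371, 14818 and 12754 normalized counts in siCtrl, 17282, 17887 and 17955 in siQKI and 27332, 25533 and 24677 in siRBFOX2 libraries. The groups did not overlap, and the log2 fold change was 0.96 in siRBFOX2 (standard error 0.06, limma adjusted p = 5.7e-08) and 0.42 in siQKI. PSAT1 and PSPH, the following steps, rose by 0.50 and 0.42 in siRBFOX2, while PSAT1 fell by 0.53 in siQKI on the same scale. ASNS, the asparagine synthetase, rose by 0.52, and MTHFD2, of the mitochondrial folate cycle, by 0.30. Over the whole list of 32 amino acid and one-carbon genes, however, 9 were higher and 9 lower (28.1% each, against 12.1% and 14.6% of all genes, median 0.03). The list had a median of 21554 normalized counts in siCtrl, in the range of the coding group where 12.9% were higher and 41.7% lower. The lower members of the list included the polyamine enzyme ODC1 (-0.40), with a close value in siQKI cells (-0.44). PSAT1, PSPH, ASNS and MTHFD2 were chosen after their values were seen.

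Stress genes of the endoplasmic reticulum moved in both directions. Of 33 genes of the unfolded protein and integrated stress responses, 11 (33.3%) were higher and 7 (21.2%) lower, against 12.1% and 14.6% of all genes. The median was 0.10, and 5 were higher without the mean-variance trend. Their median level, 18234 normalized counts in siCtrl, lies in the range of the coding group where 12.9% were higher and 41.7% lower. CHAC1, an ATF4 target that degrades glutathione, rose from 5406, 7097 and 6311 to 9305, 8216 and 9139 normalized counts (log2 fold change 0.51, limma adjusted p = 0.000364), while CHAC1 was not called in siQKI cells (0.02). ATF4 itself rose by 0.30, while PPP1R15A, which acts in the same arm and whose locus overlaps FTL, fell by 0.37. EDEM1, which hands misfolded glycoproteins to degradation, fell from 7006, 7543 and 7931 to 3423, 3091 and 3309 normalized counts (log2 fold change -1.19, limma adjusted p = 1.16e-08) and was lower than in siQKI by -0.69. SERP1 fell by 0.47. The main chaperone of the compartment, HSPA5, was not called.

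**Figure D3:**
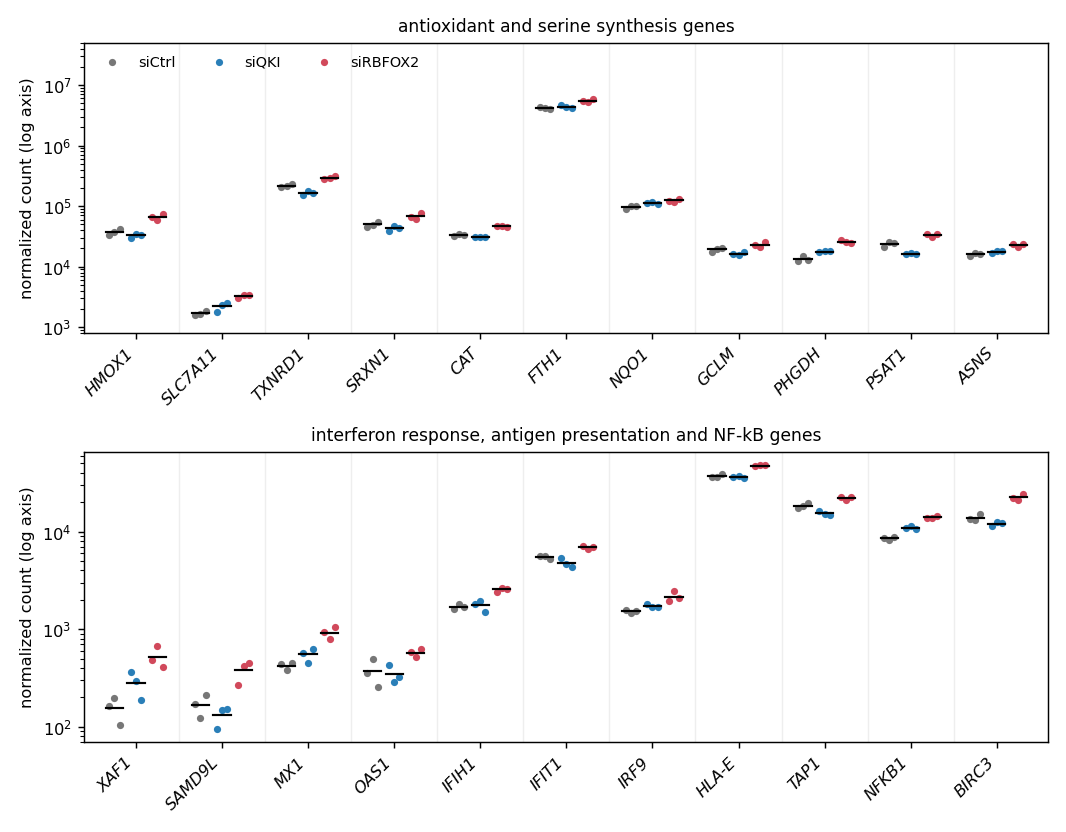
Normalized counts (vertical log axes) of antioxidant and serine synthesis genes (upper panel) and of interferon, antigen presentation and NF-kB genes (lower panel) in each siCtrl (grey), siQKI (blue) and siRBFOX2 (red) library, with bars at the means of 3 libraries. The siRBFOX2 points lie above the siCtrl points for every gene drawn. TXNRD1, PSAT1, TAP1, GCLM, BIRC3, IFIT1 and CAT were called lower in siQKI than in siCtrl.

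Genes of the interferon response also rose in part. Type I interferon and viral RNA switch these genes on through a factor complex that contains IRF9, and their products bind or degrade foreign RNA. Of 42 tested members, 17 (40.5%) were higher and 2 (4.76%) lower, with a median log2 fold change of 0.21, and 15 were higher than both siCtrl and siQKI. In siQKI cells the median was -0.08. The count of higher members was 11 without siRBFOX2 replicate 1 and 11 without the mean-variance trend. The median level of the list was 2472 normalized counts in siCtrl cells, in the range of the second of the 4 coding groups, where 21.7% of genes were higher.

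The largest rises were in genes of low level. XAF1 (GSHG0017825; chromosome 17, 6755447 to 6775647), a pro-apoptotic antagonist of XIAP, had 162, 198 and 103 normalized counts in siCtrl, 364, 292 and 189 in siQKI and 486, 673 and 408 in siRBFOX2 libraries (log2 fold change 1.77 against siCtrl, standard error 0.30, limma adjusted p = 0.000475; 0.91 against siQKI). MX1 (GSHG0027784; chromosome 21, 41420515 to 41459213), a GTPase that blocks influenza virus, had 436, 381 and 455 in siCtrl and 933, 796 and 1041 in siRBFOX2 libraries (log2 fold change 1.12, limma adjusted p = 0.000138). SAMD9L, a restriction factor of poxviruses, reached 269, 424 and 450 in the siRBFOX2 libraries (log2 fold change 1.17, limma adjusted p = 0.01). All siRBFOX2 values of these genes lay above all siCtrl values. IFIH1, the sensor of long double-stranded RNA also known as MDA5, was more abundant and rose from 1593, 1794 and 1683 to 2428, 2669 and 2572 normalized counts (log2 fold change 0.60, limma adjusted p = 0.000378), where siQKI cells had 0.05. IRF9 rose by 0.50 and IFIT1 by 0.33 in siRBFOX2, both at loci that overlap another gene (PSME2 and LIPA). The nuclease gene ISG20 fell by 0.31. Members that were not called included ISG15, IFIT2, MX2, IRF7, OAS2 and OAS3. IFIH1, IRF9 and IFIT1 were chosen after their values were seen.

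The promoters of IFIT1 and IFIH1 are shown for the interferon-stimulated response element (ISRE), searched as GAAANNGAAA on both strands and set in capitals. Among promoters of 250 bases, 3.02% of all 35116 held it, as did 15 of the 32 matched among the 42 tested members and 5 of the 15 matched among the 17 higher ones (IFIT1, IFIT3, IFIT5, IFIH1 and PARP14). The windows are chr10:89392373-89392622 on the plus strand for IFIT1 and chr2:162318685-162318934 on the minus strand for IFIH1 (RefSeq, GRCh38.p14). IFIT1 holds 2 matches, which begin 116 and 103 bases before the start, and IFIH1 holds 3, of which 2 overlap.
IFIT1: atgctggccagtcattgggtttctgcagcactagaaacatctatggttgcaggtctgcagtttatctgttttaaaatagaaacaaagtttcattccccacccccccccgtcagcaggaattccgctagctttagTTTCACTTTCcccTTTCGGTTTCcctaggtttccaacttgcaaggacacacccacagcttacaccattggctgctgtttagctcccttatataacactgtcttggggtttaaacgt
IFIH1: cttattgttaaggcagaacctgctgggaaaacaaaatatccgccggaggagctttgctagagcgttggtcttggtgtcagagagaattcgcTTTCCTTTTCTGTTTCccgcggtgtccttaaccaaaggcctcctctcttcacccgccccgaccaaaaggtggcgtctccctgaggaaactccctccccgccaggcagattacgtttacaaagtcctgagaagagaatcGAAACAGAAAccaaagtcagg
Members with the element were thus no larger a share of the risers than of the list, and the windows of XAF1, MX1 and SAMD9L held no match.

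Of 20 genes of MHC class I presentation, 9 (45%) were higher and 0 lower, against 12.1% and 14.6% of all genes (median 0.13, and 15475 normalized counts in siCtrl). In siQKI cells 6 were higher and 3 lower, with a median of 0.10. The peptidase gene ERAP1 (GSHG0035612; chromosome 5, 96759540 to 96814145), which trims peptides for MHC class I, had 6439, 6132 and 6727 normalized counts in siCtrl, 16319, 16790 and 16815 in siQKI and 17327, 18580 and 18979 in siRBFOX2 libraries. It rose by 1.51 and 1.37 on the log2 scale in the knockdowns, whose difference of 0.14 (standard error 0.05) was not called (limma adjusted p = 0.0674), and it overlaps CAST. HLA-E went from 35965, 36617 and 39376 to 46719, 48012 and 48038 normalized counts in siRBFOX2 (log2 fold change 0.35, limma adjusted p = 1.64e-05), with -0.04 in siQKI, and the peptide transporter gene TAP1 had 0.26 and -0.26.

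Of 39 cytokine and NF-kB genes, 11 (28.2%) were higher and 8 (20.5%) lower, against 12.1% and 14.6% of all genes. Their median level, 5077 normalized counts in siCtrl, lies in the range of the coding group where 16.4% were higher and 28.6% lower. NFKB1, the precursor of the p50 subunit, rose from 8547, 8227 and 8889 to 13788, 13720 and 14548 normalized counts (log2 fold change 0.71, standard error 0.05, limma adjusted p = 1.53e-07), and the NF-kB targets BIRC3, an inhibitor of apoptosis, and TNFAIP3, which ends NF-kB signalling, rose by 0.70 and 0.56. The secreted factors IL11, CXCL8 and LIF fell by 1.05, 0.90 and 0.57 on the log2 scale. CXCL8 and LIF fell further in siQKI (-1.46 and -0.79), whereas IL11, a cytokine of the IL6 family, was not called there (0.12) and had 1525, 2035 and 1831 normalized counts in siCtrl against 881, 834 and 870 in siRBFOX2 libraries.

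**Figure D4:**
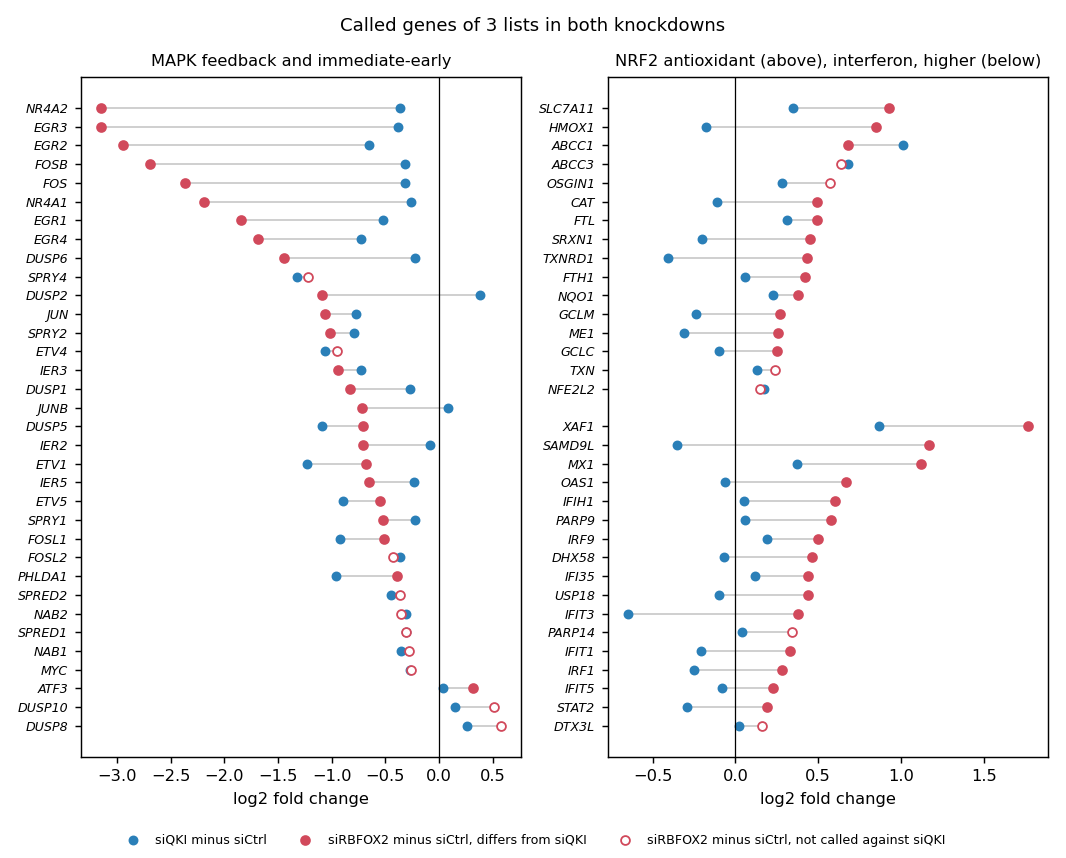
Log2 fold change over siCtrl (horizontal axis) in siQKI (blue) and in siRBFOX2 (red) of the called members of the immediate-early and antioxidant lists with a mean of at least 50, where AKR1C3 is left out, and of the interferon genes called higher. Red points are filled where siRBFOX2 differed from siQKI by limma (adjusted p under 0.05). EGR, FOS and NR4A genes lie farther to the left in siRBFOX2 than in siQKI, and most antioxidant and interferon genes lie to the right of their siQKI values.

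Most of the listed proliferation genes were lower, mostly by small amounts. Of 55 genes of mitosis and the spindle, 50 (90.9%) were lower and 0 higher, with a median log2 fold change of -0.24 in siRBFOX2 and -0.16 in siQKI, and leaving out 1 library gave 43 to 50 lower members. The list had a median of 32142 normalized counts in siCtrl, in the range of the coding group where 41.7% were lower. NUF2, of the kinetochore complex that grips microtubules, showed the largest fall of these, from 12076, 13416 and 13971 to 8566, 8639 and 8635 normalized counts (log2 fold change -0.61, standard error 0.05, limma adjusted p = 1.43e-06). The spindle motor KIF11 fell by 0.42 in siRBFOX2 and had -0.04 in siQKI, with a difference of -0.38 (limma adjusted p = 3.17e-05). SPC24 and MAD2L1 fell by 0.51 and 0.43. The members not called were CCNB2, KIF4A, KIF18A, KIF20A and ESPL1.

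Among 60 genes of DNA replication and S phase, 41 (68.3%) were lower and 3 higher (median -0.26, and -0.18 in siQKI), and 19 were lower than both siCtrl and siQKI. Its median level was 15528 normalized counts in siCtrl, in the range of the coding group where 41.7% were lower. PCNA, the sliding clamp of DNA polymerases, had 87899, 88442 and 88500 normalized counts in siCtrl, 80969, 84175 and 81473 in siQKI and 69062, 68982 and 69114 in siRBFOX2 libraries, a drop to 78.2% of the control level. The replication factors MCM10 and GINS1 fell by 0.49 and 0.46. The D-type cyclins, which carry growth signals into the cell cycle, took different courses. CCND1 (GSHG0006467; chromosome 11, 69641156 to 69654474) had 53426, 53611 and 55744 normalized counts in siCtrl, 37481, 37788 and 36018 in siQKI and 27413, 25662 and 26132 in siRBFOX2 libraries (log2 fold change -1.04 against siCtrl, limma adjusted p = 2.27e-10; -0.49 against siQKI, limma adjusted p = 6.28e-07). CCND3 fell by 0.42, while CCND2 rose from 135, 157 and 130 to 484, 278 and 468 normalized counts (292% of the control level, limma adjusted p = 0.000968) and stayed at 137, 146 and 207 in siQKI. CCNE1 and RRM2 also rose (0.31 and 0.25). The inhibitor gene CDKN1A was not called (-0.03). PCNA, CCND3 and CDKN1A were chosen after their values were seen.

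The machinery of splicing and of protein quality control was lower in the same range. Of 52 core spliceosome genes, 35 (67.3%) were lower and 0 higher, with a median of -0.20 in both knockdowns, and 28 to 41 were lower when 1 library was left out. The median level of these genes in siCtrl was 40436 normalized counts, that of the heat shock, proteasome and mitochondrial ribosomal genes below was 118913, 49772 and 20211, and all lie in the range of the coding group where 41.7% of genes were lower. SNRNP27, of the tri-snRNP, fell from 40843, 38534 and 39690 to 25773, 27033 and 29191 normalized counts (log2 fold change -0.54, limma adjusted p = 1.28e-06) and further in siQKI (-0.70). SNRNP200, the helicase that unwinds U4 from U6, fell from 52742, 56198 and 55640 to 42843, 39939 and 41718 (-0.40) and had -0.07 in siQKI, with a difference of -0.33 (limma adjusted p = 3.15e-05). Of 23 SR proteins and their kinases, with a median level in the same range (25973), 10 (43.5%) were lower, and 6 without siCtrl replicate 3 or siRBFOX2 replicate 1. SRSF4 led them at -0.44. Among tissue-restricted splicing regulators PTBP2, the neuronal paralog of the polypyrimidine tract protein, went opposite ways, from 4069, 4153 and 4547 normalized counts in siCtrl to 2735, 2574 and 2565 in siRBFOX2 and to 24889, 25732 and 23432 in siQKI libraries (log2 fold changes -0.70 and 2.54).

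Heat shock and chaperone genes were lower in 22 and higher in 0 of 31 cases (median -0.20), but only 2 were below siQKI as well. HSP90AB1, the constitutive HSP90, had 686574, 718189 and 749866 normalized counts in siCtrl and 518497, 502243 and 519492 in siRBFOX2 libraries (log2 fold change -0.48, limma adjusted p = 8.09e-07), and the inducible HSPA1A was not called (-0.00). Of 37 proteasome genes 20 were lower (median -0.13), which became 13 without siCtrl replicate 3 or siRBFOX2 replicate 2 and 9 without the mean-variance trend. Of 77 mitochondrial ribosomal proteins 41 were lower and 2 higher (median -0.17), and 23 were lower without that trend. The 85 cytosolic ribosomal proteins showed 5 lower and 2 higher genes and a median of -0.02 (2 lower without siCtrl replicate 2 or siRBFOX2 replicate 2, 9 without siRBFOX2 replicate 3), although their median level, 187918 normalized counts in siCtrl, was the highest of these lists. Metallothioneins, which bind zinc and copper, were lower in 4 (44.4%, against 14.6% of all genes) and higher in 0 of 9 cases (median -0.50, and 0.09 in siQKI). MT1E, the second most abundant of the 4 after MT2A, fell from 76689, 75087 and 65705 to 48461, 40123 and 48255 normalized counts (log2 fold change -0.67, limma adjusted p = 1.08e-05) and was lower than in siQKI by -0.86.

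**Figure D5:**
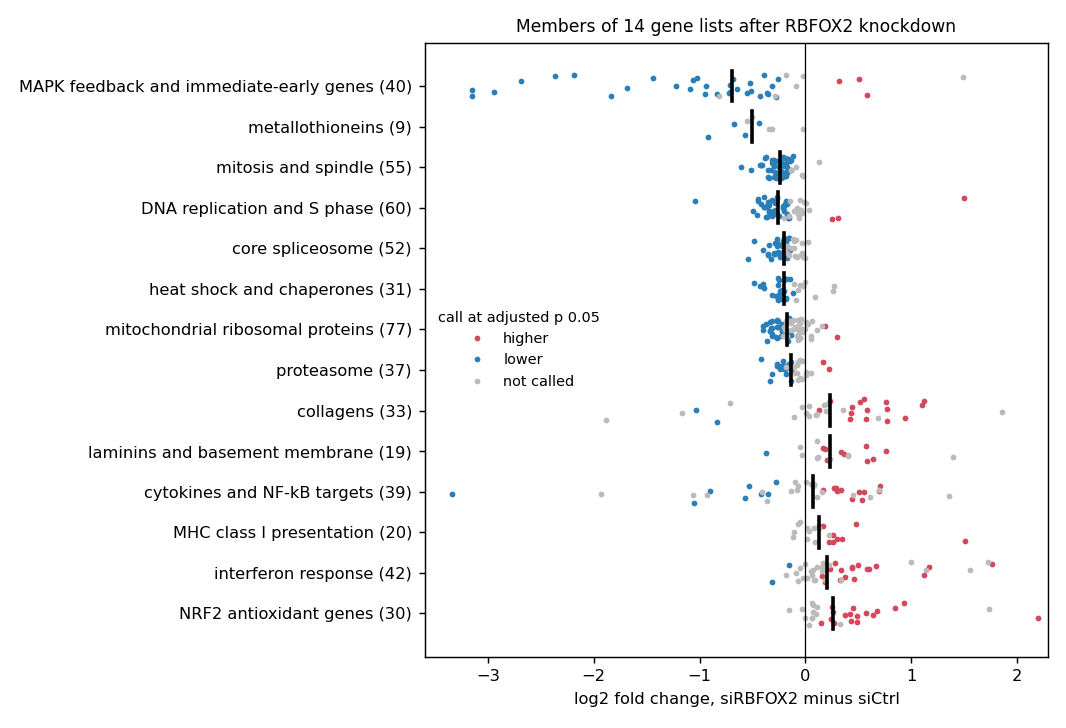
Log2 fold change of siRBFOX2 over siCtrl (horizontal axis) for the tested members of 14 gene lists (number in brackets), one point per gene, coloured by the call, with bars at the list medians and AKR1C3 drawn at the right edge. The medians run from -0.69 for the immediate-early list to 0.26 for the antioxidant list, and most points of the mitosis and spliceosome lists lie left of 0.

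Adhesion and matrix genes moved in both directions. The collagen receptor ITGA2 (GSHG0034319; chromosome 5, 52989337 to 53094779) had 49488, 48989 and 56320 normalized counts in siCtrl, 25188, 28162 and 28335 in siQKI and 16447, 17467 and 17071 in siRBFOX2 libraries. The groups did not overlap, and 32.9% of the control level remained in siRBFOX2 (log2 fold change -1.60, standard error 0.06, limma adjusted p = 1.41e-10), which was lower than in siQKI by -0.68 (limma adjusted p = 1.08e-06). ITGA10, another collagen receptor subunit, fell by 1.26 on the log2 scale and overlaps NOTCH2NLA. ITGB3, a subunit of the vitronectin receptor, rose by 0.58. Of all 17 integrins tested, 5 (29.4%) were lower and 1 (5.88%) higher, against 14.6% and 12.1% of all genes. Their median level, 6983 normalized counts in siCtrl, lies in the range of the coding group where 28.6% were lower and 16.4% higher. CD44, the hyaluronan receptor, was among the most abundant genes and fell from 908753, 898711 and 907759 to 557935, 583167 and 538914 normalized counts (log2 fold change -0.69, limma adjusted p = 1.43e-08), with -0.32 in siQKI.

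Collagens and basement membrane genes leaned upwards in both knockdowns. Of 33 collagens, 15 (45.5%) were higher and 2 (6.06%) lower, against 12.1% and 14.6% of all genes. Their median was 0.23, and 0.30 in siQKI, and 9 were higher without siRBFOX2 replicate 1 or without the mean-variance trend. The lower count was 1 without siCtrl replicate 1 or 3 or siRBFOX2 replicate 1 or 3. The list had a median of 1040 normalized counts in siCtrl, in the range of the coding group where 21.7% were higher and 13.2% lower. COL4A2, a chain of the basement membrane network, went from 2477, 2172 and 2469 to 3444, 3620 and 3538 normalized counts (log2 fold change 0.58, limma adjusted p = 3.68e-05), and COL4A5 and COL15A1 rose by 0.76 and 1.12. COL24A1 moved in opposite directions in the knockdowns, with 245, 157 and 151 normalized counts in siCtrl and 364, 333 and 475 in siRBFOX2 libraries and log2 fold changes of 1.10 in siRBFOX2 and -0.76 in siQKI. The transmembrane collagen gene COL13A1 fell by 0.83. Of 19 laminins and other basement membrane genes 9 (47.4%) were higher, among them the epithelial laminin chain LAMA3 (0.64), and 1 (5.26%) was lower. Of 9 listed stromal markers 6 were tested and 3 were higher (COL1A1, RGS5 and PDGFRB), none of them above both siCtrl and siQKI, with DCN at 0, and the part of other cells in the matrix genes was not tested. Without siRBFOX2 replicate 2 all 3 of these calls were lost, RGS5 and PDGFRB also without other libraries.

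Of 18 EMT transcription factors and epithelial antagonists, 1 was higher (5.56%) and 2 were lower (11.1%), against 12.1% and 14.6% of all genes. SNAI1, a repressor of E-cadherin, fell from 2830, 2716 and 2780 to 1602, 1488 and 1499 normalized counts (log2 fold change -0.86, limma adjusted p = 1.31e-06) and was lower than in siQKI by -0.34. KLF4, also an ERK-responsive zinc finger factor, fell by 0.80, and GRHL1, of an epithelial factor family, rose by 0.51. CDH1, which encodes E-cadherin, rose from 995, 997 and 968 to 1438, 1535 and 1322 normalized counts (log2 fold change 0.53, limma adjusted p = 0.00182), and rose further in siQKI (1.39). ZEB1 and VIM were not called, at 0.02 and -0.05. Of 32 contractile and actin-binding genes 6 (18.8%) were higher and 11 (34.4%) lower. Their median level, 80569 normalized counts in siCtrl, lies in the range of the coding group where 12.9% were higher and 41.7% lower. CALD1, the actin-binding caldesmon, rose in siRBFOX2 from 503, 528 and 505 to 1043, 1053 and 984 normalized counts (limma adjusted p = 3.46e-05), and the myosin light chain gene MYL9 rose by 0.63. Of 22 YAP and TEAD targets 8 (36.4%) were higher and 6 (27.3%) lower (median 0.07). The matricellular genes CCN2 and CCN1 were lower (-0.90 and -0.50) and TGFB2 was higher (0.64).

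Beyond the immediate-early genes, the largest changes were in genes of very low level. Changes were ranked among called genes with a symbol, an average of 50 or more over both groups and no overlap of siRBFOX2 with siCtrl. The 12 largest rises were those of NXF3, ADAM33, MAP1LC3C, VWA5B2, CD300C, FAM66B, SLCO2B1, RNF150, SLC44A3-AS1, FBXO15, PRODH and NFAM1. SLCO2B1, an organic anion carrier, had 15.3, 13 and 7.04 normalized counts in siCtrl, 19.4, 43.6 and 10.5 in siQKI and 145, 111 and 68.5 in siRBFOX2 libraries (log2 fold change 3.09, standard error 0.68, limma adjusted p = 0.00333). ADAM33, a metalloprotease, had 23, 2 and 0 in siCtrl and 318, 91 and 42.6 in siRBFOX2 libraries. Both genes lay below 50 in every siCtrl library and thus met the average of 50 only through the siRBFOX2 libraries. The 12 genes averaged 50.1 to 124 over both groups, with log2 fold changes of 2.54 to 4.87. The average of 50 therefore rested mainly on the siRBFOX2 libraries for the other genes too. The ADAM33 log2 fold change of 4.71 (standard error 1.11) was 3.68 without siCtrl replicate 3, 3.93 without siRBFOX2 replicate 1, 5.36 without siRBFOX2 replicate 3 and 5.97 without siCtrl replicate 1. The lack of overlap between groups was a condition of the ranking and is no separate result. The spread among siRBFOX2 libraries was several-fold, and only SLCO2B1 and CD300C of the 12 were called against siQKI. The calls of NXF3, CD300C, FAM66B and PRODH were lost without siRBFOX2 replicate 2, and that of RNF150 without siRBFOX2 replicate 1. Those of NXF3, CD300C and PRODH were lost without siCtrl replicate 1 as well. NXF3 also lost its call without siCtrl replicate 2 or siRBFOX2 replicate 3. CD300C also lost it without siRBFOX2 replicate 1 or 3, and in 9 of the 15 alternatives in all. Beside FOXJ1, RBFOX2 and the immediate-early genes, the largest falls in the same ranking were those of KLRK1-AS1 (-2.13), the WNT ligand gene WNT7A (-2.08), ASGR2 (-2.02) and the endothelial receptor gene ECSCR (-2.01). The call of WNT7A was lost without siCtrl replicate 2, and that of ASGR2 without any one siCtrl library or siRBFOX2 replicate 3.

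The last comparison concerns the genes in which the study lists RBFOX2-dependent splicing events. These events were chosen on these samples, so their genes are no independent evidence of a direction. Of 348 such genes tested, 61 (17.5%) were higher and 104 (29.9%) lower, with a median log2 fold change of -0.05 and a median of 10196 normalized counts in siCtrl. Over all genes the shares were 12.1% and 14.6%, and in the coding group whose range holds that level they were 16.4% and 28.6%. At least 1.5-fold changes were seen in 13 of the higher and 11 of the lower genes. Genes with cassette exons numbered 194, with 36 higher and 58 lower. Where the exon is listed as up after knockdown, 12 of 90 genes were higher and 30 lower, and where it is listed as down, 24 of 106 were higher and 29 lower. Genes with alternative first exons, which can reflect promoter choice, were higher in 10 and lower in 17 of 50 cases.

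The largest rises among the event genes were those of CACNB3, a calcium channel subunit (0.94), UNKL (0.82), CASK, a synaptic scaffold kinase (0.75), SHTN1 (0.73) and TNS3, of focal adhesions (0.73). CACNB3 overlaps DDX23 and UNKL overlaps GNPTG in the annotation. The largest falls were those of ZNF185, an actin-binding LIM protein (-1.19), MBP (-0.89), PANK1, which opens coenzyme A synthesis (-0.85), KLF4 (-0.80) and C3orf52 (-0.79). PANK1 had 1325, 1617 and 1546 normalized counts in siCtrl, 1424, 1674 and 1641 in siQKI and 809, 881 and 798 in siRBFOX2 libraries, so that only the siRBFOX2 libraries stood apart (difference from siQKI -0.93, limma adjusted p = 2.42e-05). Genes whose exons the study assayed singly, or lists among subtype-specific RBFOX2-regulated events (TJP1 and ERBIN), moved little in total level. The study gives the assayed exons of AFDN and DST as specific to QKI. AFDN, a junction scaffold, fell by 0.23, PLOD2, a lysyl hydroxylase, rose by 0.36 and TJP1, of tight junctions, rose by 0.16 on the log2 scale. MYO18A, DST, LRRFIP2, ADD3 and ERBIN were not called. The falls of KIF13A and SYTL2 (-0.12 and -0.13) were each lost in 11 of the 15 alternatives, among them those without any one siCtrl library.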

How the data were processed

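RNA was taken 48 h after transfection, and polyA libraries were sequenced as pairs of 150-base reads. The submitters' processing notes name FastQC, Picard, SAMtools, STAR 2.7.5a and DESeq2, with the hg38 build and the FAST DB annotation. The deposited values are a signal per gene, namely read counts after division by the DESeq2 size factor of the library (normalized counts, as scaled by the authors). All values of a library were whole multiples of one step (within 0.01), and 83.4% to 84.8% of those of 1 to 30 steps were also multiples of 3. A step thus does not stand for 1 fragment, depth in fragments is unknown, and no count model was run. Relative size factors were 0.9509 to 1.0796 in the 6 libraries, and the 10 highest genes took 13.4% to 15.6% of a library.

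Genes averaging 10 or more in the 6 libraries entered limma 3.58.1 (R 4.3.3) on log2(value + 1), with all 9 PANC-1 libraries, a mean-variance trend, two-sided moderated tests and Benjamini-Hochberg adjustment over all genes. The script was tested on simulated data. Gene classes and promoters came from RefSeq GRCh38.p14, in which 17234 genes were matched to a class. Python 3.11.15 with pandas 2.3.3, numpy 2.4.6 and matplotlib 3.10.9 was used for counts and figures. A gene list is described by its counts and median, with no test. The named genes were the RBFOX and STAR families, the 12 largest rises and falls, up to 3 per list and direction, 5 event genes per direction and a set of reference genes. Rises and falls were ranked among called genes with a symbol, a mean of at least 50 and no overlap of siRBFOX2 with siCtrl. Other named genes are said to have been chosen after their values were seen. The members and lists were chosen with earlier results of these data known. Columns of the authors' own comparisons and tables of the other cell line were not used here. Results for some genes are not reported here.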

Additional observations from a re-analysis of the deposited data

How the results depend on the processing

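With adjusted p under 0.01, 3850 genes were called, 1592 of them higher, 828 by at least 1.5-fold (560 higher), 3096 between siRBFOX2 and siQKI and 859 against both. Without the mean-variance trend, 973 differed from both. Leaving out 1 library gave 4818 to 5516 called genes, 2095 to 2386 higher, 2643 to 3130 lower, 1058 to 1258 at least 1.5-fold, 4066 to 4770 against siQKI, 1232 to 1361 against both, and an RBFOX2 log2 fold change of -3.00 to -2.76. Of 2070 list counts under the alternatives 1837 stayed within 1.5 times and 233 did not. Of 4690 values of single named genes 372 lost their call, 3 gained one and 0 reversed. The cause of these shifts was not tested.

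Replicate numbers did not pair the samples (correlation of deviations 0.0191, -0.0027 and 0.0258 for siCtrl with siRBFOX2). With a replicate block 5887 genes were called, and the RBFOX2 log2 fold change was -2.89. The fit to 6 libraries cannot give the siQKI comparisons, and DESeq2 and edgeR were not run, since the values are not counts. Unknown depth limits statements on genes of low level.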

Other observations

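Notch genes moved in both directions, with 9 (27.3%) higher and 8 (24.2%) lower of 33 tested, against 12.1% and 14.6% of all genes, and a median log2 fold change of 0.01. Their median level, 3312 normalized counts in siCtrl, lies in the range of the coding group where 21.7% were higher and 13.2% lower. HES1, the best known target of the pathway, had 37907, 37025 and 35033 normalized counts in siCtrl, 39833, 29321 and 31791 in siQKI and 22058, 20280 and 19363 in siRBFOX2 libraries. It fell only in siRBFOX2 cells (log2 fold change -0.83, limma adjusted p = 4.5e-06), and the difference from siQKI was -0.70 (limma adjusted p = 2.79e-05). RBPJ, the DNA-binding partner of Notch, rose by 0.73 in siRBFOX2 and 0.85 in siQKI, and HEYL rose by 0.83 in siRBFOX2. Of 45 TGF-beta and BMP genes, 11 (24.4%) were higher and 9 (20%) lower. The receptor gene TGFBR2 fell from 37068, 39607 and 40390 to 23360, 24063 and 22944 normalized counts, while the ligand gene TGFB2 rose from 12225, 12106 and 12667 to 18713, 20269 and 18758, with log2 fold changes of -0.73 and 0.64. The BMP antagonist NOG fell by 0.65 and was lower than in siQKI by -0.50 (limma adjusted p = 0.000188).

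CCNG1, which encodes cyclin G1, had 9200, 9985 and 9308 normalized counts in siCtrl, 28266, 26567 and 26622 in siQKI and 23186, 21840 and 21915 in siRBFOX2 libraries. It rose by 1.23 on the log2 scale in siRBFOX2 and overlaps NUDCD2. PLK3 fell by 0.89 and CDKN1A was not called. Of 39 receptor tyrosine kinases and ligands, 13 (33.3%) were higher and 9 (23.1%) lower, against 12.1% and 14.6% of all genes. Their median level, 1185 normalized counts in siCtrl, lies in the range of the coding group where 21.7% were higher and 13.2% lower. FGFR4 had 766, 655 and 671 normalized counts in siCtrl, 640, 527 and 432 in siQKI and 1211, 1087 and 1107 in siRBFOX2 libraries. Of 50 WNT genes, 13 (26%) were higher and 7 (14%) lower, with WNT5A higher (0.80) and the secreted inhibitor gene SFRP1 lower (-0.81). FGFR4 was chosen after its values were seen.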
